A study of Rattus norvegicus with 6 samples.

Results

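Transcripts of the cyclic AMP (cAMP) pathway were followed in dorsal root ganglion (DRG) neurons of spontaneously hypertensive rats (SHR). The genes were taken by a rule on their names, set with earlier results of these data known. They were the protein-coding rows named Adcy, the adenylyl cyclases, Pde, the phosphodiesterases, and a set of effectors. The effectors were the protein kinase A (PKA) subunits Prkaca, Prkacb, Prkar1a, Prkar1b, Prkar2a and Prkar2b, the exchange factors Rapgef2, Rapgef3, Rapgef4 and Rapgef6, the transcription factors Creb1, Creb3, Creb5 and Crem, and the Akap genes. The rule found 65 of the 25689 genes in the table, which holds 20765 protein-coding genes. Of these, 10 belonged to synthesis, 24 to breakdown and 31 to the effectors.

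Both groups were SHR labelled wild type. The labels give an age of 6 to 8 weeks, whereas the study's methods describe older rats, with ganglia taken some weeks after the operation. In the PRATA group (3 libraries) the perirenal adipose tissue had been removed surgically on both sides (perirenal adipose tissue ablation), and the sham group (3 libraries) had a sham operation. Neurons of the upper lumbar ganglia were dissociated with enzymes, plated for some hours and flushed off the dish to leave glia behind. The libraries hold neurons of these ganglia in general, and not only those that reach perirenal fat. Markers of glia and of other cells were detected as well. The labels do not say whether a library came from 1 animal or from pooled material, and p-values measure the spread between these libraries. In bulk RNA of this kind, fewer cells of a type and less RNA per cell cannot be told apart.

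Adenylyl cyclases make cAMP from ATP when stimulatory G proteins act on them, and phosphodiesterases break it down. cAMP frees the catalytic subunits of PKA from their regulatory subunits, acts on cyclic nucleotide-gated channels and activates the Epac exchange factors, while A-kinase anchoring proteins hold PKA at particular sites. PKA in turn activates the transcription factor CREB. In sensory neurons this pathway is known for sensitisation to prostaglandins and other inflammatory mediators.

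The libraries held 5892967 to 15226952 counts. Values are CPM, counts scaled to the library total with TMM factors, which compare one gene across samples and not one gene with another. A total of 3 counts, taken as the floor, was worth 0.207 to 0.468 CPM. PRATA replicate 3 and sham replicate 1 stood apart from the other libraries, because 1 copy of the 7SL RNA took 12.8% and 7.92% of the 7SL reads there and 91.6% to 93.1% in the other 4. All 22 sensory neuron markers were detected and none was at 0, and 21 of the 22 had a positive log2 fold change. Summed over that list, the markers stood at 14890 to 22490 CPM in PRATA and 10830 to 15980 CPM in sham. The 8 satellite glia markers summed to 3221 to 6099 CPM against 4332 to 8557 CPM and all had negative log2 fold changes. The 9 Schwann cell markers summed to 777 to 1393 CPM against 583 to 781 CPM and all had positive ones. The median log2 fold change was -0.47 for fibroblast, 0.68 for macrophage, 0.30 for endothelial and 0.22 for pericyte and smooth muscle markers. The part of these markers in the results below was not tested, apart from the values relative to the neuron markers given further on.

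Members of all 3 classes were higher in PRATA at an unadjusted p under 0.05, among them the cyclases Adcy2 and Adcy7, the phosphodiesterase Pde8b and the Epac gene Rapgef4, and none was lower. After a filter on low counts, 57 of the 65 genes were tested. Of these, 10 were higher in PRATA and 0 were lower by the quasi-likelihood test of edgeR at an unadjusted p under 0.05, against 8.19% of all 14919 genes tested that were higher and 10.1% that were lower. In either direction the members' share was 17.5%, near the 18.3% of all genes, so the count as such does not set them apart, and the difference lay in its direction. With the 8 untested genes outside the count, the filter itself can favour genes that are high in 1 group. By DESeq2 the members counted 10 higher and 0 lower, by limma-trend 14 and 0, and by limma voom 23 and 3. Over all genes the same fits gave 7.46% higher and 11.1% lower by DESeq2, 8.39% and 8.92% by limma-trend, and 15.6% and 15.3% by limma voom.

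After Benjamini-Hochberg adjustment over all genes, edgeR called no member and no gene at all (0% of 14919, smallest adjusted p = 0.156), while 2734 genes had an unadjusted p under 0.05. At the same threshold DESeq2 gave 744 genes, among them 3 members, Pde8b, Adcy7 and Adcy2. Limma voom called 1173 genes and 6 members, and limma-trend called 0 members. No member passed an unadjusted p under 0.05 together with an absolute log2 fold change over 1, where 1.17% of all genes did so upward, 3.23% downward and 4.4% in either direction. Ranges of the 3 PRATA and 3 sham values did not overlap for 14 members, 13 with PRATA above sham and 1 below. Over all genes the shares were 11.6% above, 11.2% below and 22.8% in either direction. The count of higher members came to 6 without PRATA replicate 1, with 1 lower, and 18 without sham replicate 2, with 4 lower. Among all genes tested, 3.47% were higher and 5.44% lower in the first of these fits. In the second, 13.4% were higher and 14.1% lower.

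Synthesis stood highest of the classes. Of the 10 adenylyl cyclases, 9 were tested and 8 had a positive log2 fold change (52% of all genes did). At an unadjusted p under 0.05, 5 were higher and 0 lower, beside 8.19% and 10.1% of all genes. The median log2 fold change of the 9 was 0.62, beside 0.02 over all genes. Adcy10, the soluble cyclase that responds to bicarbonate, was too low to test.

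Adcy2 and Adcy7 belong to the cyclases that G protein beta-gamma subunits can stimulate. Adcy2 (ENSRNOG00000032150) was at 21.4, 21.7 and 22.5 CPM in the PRATA samples and at 13.2, 13.6 and 11.2 CPM in the sham samples. The 3 PRATA values lay close together and all stood above the highest sham value. Its mean was 21.9 ± 0.583 CPM (SD, n = 3) against 12.7 ± 1.25 CPM (SD, n = 3), a log2 fold change of 0.79 (SE 0.177, unadjusted p = 0.00203 and adjusted p = 0.156, edgeR). Adcy7 (ENSRNOG00000014776) stood at 39.6, 34.1 and 34.5 CPM in PRATA and 21.9, 23.3 and 19.5 CPM in sham, again without overlap. Its log2 fold change was 0.74 (SE 0.166, unadjusted p = 0.00194 and adjusted p = 0.156, edgeR). Both kept an unadjusted p under 0.05 in all 16 alternative fits, with log2 fold changes of 0.72 to 0.85 for Adcy2 and 0.65 to 0.84 for Adcy7. Adjusted p-values of these fits ran from 0.0254 to 0.550 for Adcy2 and from 0.0211 to 0.550 for Adcy7.

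Adcy8, Adcy3 and Adcy1 are the cyclases that calmodulin regulates. Adcy8 was at 20.9, 16 and 16.4 CPM in PRATA and 11.8, 12 and 10.8 CPM in sham (log2 fold change 0.62, SE 0.199, unadjusted p = 0.0138, edgeR). Adcy3, the cyclase with the most reads and the one that olfactory neurons use, was at 87.4, 64.6 and 66.7 CPM in PRATA and 51.1, 61.7 and 43.5 CPM in sham (0.48, SE 0.201, unadjusted p = 0.0419). Neither gene's groups overlapped, but sham replicate 2 of Adcy3 came within a few CPM of the lowest PRATA sample. Adcy1 was at 31.8, 36.0 and 26.2 CPM in PRATA and 31.2, 17.3 and 14.6 CPM in sham, and sham replicate 1 fell inside the PRATA range (log2 fold change 0.57, unadjusted p = 0.0918).

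Adcy5 is a cyclase that calcium inhibits. It was at 55.6, 59.7 and 89.5 CPM in PRATA and 47.3, 45.7 and 38.4 CPM in sham (log2 fold change 0.64, SE 0.221, unadjusted p = 0.0194, edgeR). PRATA replicate 3 was far above the others, and the groups did not overlap. Adcy6, the other calcium-inhibited cyclase, overlapped, with 11.9, 25.7 and 11.6 CPM against 23.3, 15.3 and 18.9 CPM (log2 fold change -0.23, unadjusted p = 0.524). It was the 1 tested cyclase with a negative value. Adcy4, at 0.775 to 2.95 CPM in PRATA and 0.624 to 1.11 CPM in sham, was near the floor, and Adcy9 had a log2 fold change of 0.42 (unadjusted p = 0.0879). These non-significant cyclases outside the naming rule were named after their values were seen.

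Sham replicate 3 was the lowest of the 6 samples for 7 of the 9 tested cyclases, where it was lowest for 18.8% of all genes. The number of cyclases higher at an unadjusted p under 0.05 was 3 without PRATA replicate 1, 3 without PRATA replicate 3 and 3 without sham replicate 3. In these fits 3.47%, 5.55% and 3.76% of all genes were higher at that p. The median log2 fold change of the cyclases was 0.47 without sham replicate 3. Without PRATA replicate 2, Adcy6 was lower (log2 fold change -0.71, unadjusted p = 0.0295, edgeR). The plot of cyclase CPM shows each sample.

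**Figure D1:**
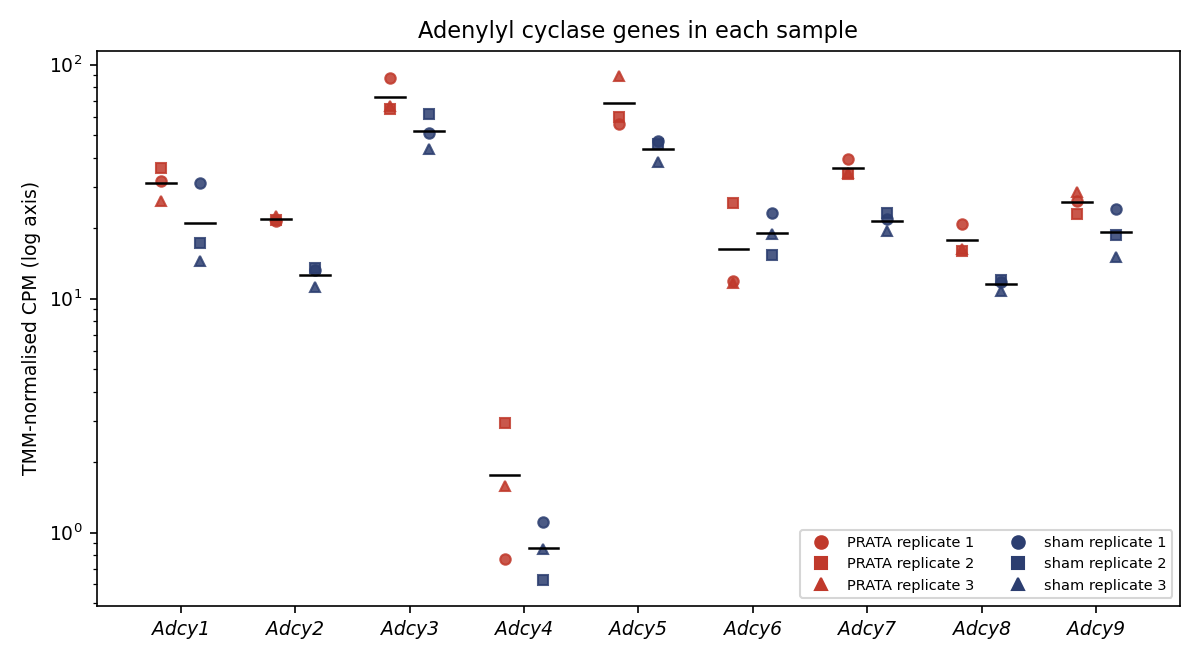
Adenylyl cyclase transcripts in each sample, as TMM-normalised CPM on a log axis. Points are single samples, shapes mark the replicate number and black bars the group means. For Adcy2, Adcy7, Adcy8, Adcy5 and Adcy3 all PRATA points lie above all sham points.

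Breakdown was divided. Of the 24 phosphodiesterases, 20 were tested, 14 had a positive log2 fold change, and 2, Pde8b and Pde2a, were higher at an unadjusted p under 0.05. These are 10% of the class, near the 8.19% of all genes that were higher. The median of the 20 was 0.25. It was 0.37 over the 8 tested genes of the cAMP-specific families 4, 7 and 8, and 0.01 over the 8 of the families 1, 2, 3, 10 and 11, which split both cAMP and cGMP. The 4 untested genes were the second Pde4c row (ENSRNOG00000043249) and Pde6a, Pde6b and Pde6c of the photoreceptor enzyme.

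Pde8b encodes a cAMP-specific enzyme of high affinity. It was at 25.7, 21.7 and 26.4 CPM in PRATA and 11.8, 16.5 and 9.82 CPM in sham, without overlap. The means were 24.6 ± 2.55 CPM and 12.7 ± 3.45 CPM (SD, n = 3 each), 1.94 times as much in PRATA (log2 fold change 0.96, SE 0.233, unadjusted p = 0.00328 and adjusted p = 0.158, edgeR). It kept an unadjusted p under 0.05 in all 16 alternative fits, and its adjusted p ran from 0.0194 to 0.550. Pde2a encodes an enzyme that cGMP stimulates. It was at 62.0, 68.6 and 72.0 CPM in PRATA and 38.4, 54.2 and 36.6 CPM in sham, also without overlap (log2 fold change 0.65, SE 0.198, unadjusted p = 0.0106 and adjusted p = 0.180, edgeR).

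The groups also did not overlap for Pde9a, a cGMP-specific enzyme, at 5.81, 6.37 and 10.2 CPM against 5.32, 4.68 and 3.68 CPM (log2 fold change 0.71, unadjusted p = 0.0535). Nor did they for the Pde4c row ENSRNOG00000019518, at 8.13, 8.21 and 7.75 CPM against 6.43, 3.28 and 5.20 CPM (0.67, unadjusted p = 0.0508). The latter was named after its values were seen, and 2 rows with 1 symbol may share reads. Pde6d, whose product carries prenylated proteins and splits no cyclic nucleotide, had 26.0, 23.0 and 26.8 CPM against 11.2, 23.7 and 14.0 CPM, where sham replicate 2 lay inside the PRATA range (0.65, unadjusted p = 0.0504).

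Pde4b, the most counted of the rolipram-sensitive family 4, was at 94.4, 135 and 36.4 CPM in PRATA and 97.6, 40.4 and 60.3 CPM in sham. The lowest of all 6 values was that of PRATA replicate 3 (log2 fold change 0.42, SE 0.474, unadjusted p = 0.402). Without PRATA replicate 3 and sham replicate 1 its log2 fold change was 1.18 (unadjusted p = 0.00459 and adjusted p = 0.206, edgeR), and without PRATA replicate 2 it was -0.02. The first of these fits left out its lowest PRATA and highest sham sample, which had to widen the difference, so that p-value adds no support. The calmodulin-dependent Pde1c stood at 75.5, 54.4 and 45.6 CPM against 120, 52.8 and 60.6 CPM, and sham replicate 1 was the highest (log2 fold change -0.41, unadjusted p = 0.251). Without that library the value for Pde1c was 0.02. Pde3a, of the family that cGMP inhibits, had the lowest log2 fold change of the class, -0.62 (unadjusted p = 0.0627), and was named after its values were seen.

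The most counted genes of the other families gave values between these. Pde7b had a log2 fold change of 0.57 (unadjusted p = 0.279), Pde10a 0.43 (unadjusted p = 0.141) and Pde11a 0.41 (unadjusted p = 0.222). Pde3b was at 0.02 (unadjusted p = 0.912), and Pde5a, the cGMP-specific target of sildenafil, at -0.39 (unadjusted p = 0.240). Pde12, a mitochondrial enzyme that trims RNA, had 0.11 (unadjusted p = 0.582). The phosphodiesterases that were higher at an unadjusted p under 0.05 numbered 3 without PRATA replicate 1, 4 without sham replicate 1 and 5 without sham replicate 2. Of all genes tested in these fits, 3.47%, 6.48% and 13.4% were higher at that p. Pde8a was lower at that p without PRATA replicate 2 and Pde3a without sham replicate 2, and the median was 0.13 without PRATA replicate 2 and 0.16 without sham replicate 1. The plot of 10 phosphodiesterases shows how the genes differ.

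**Figure D2:**
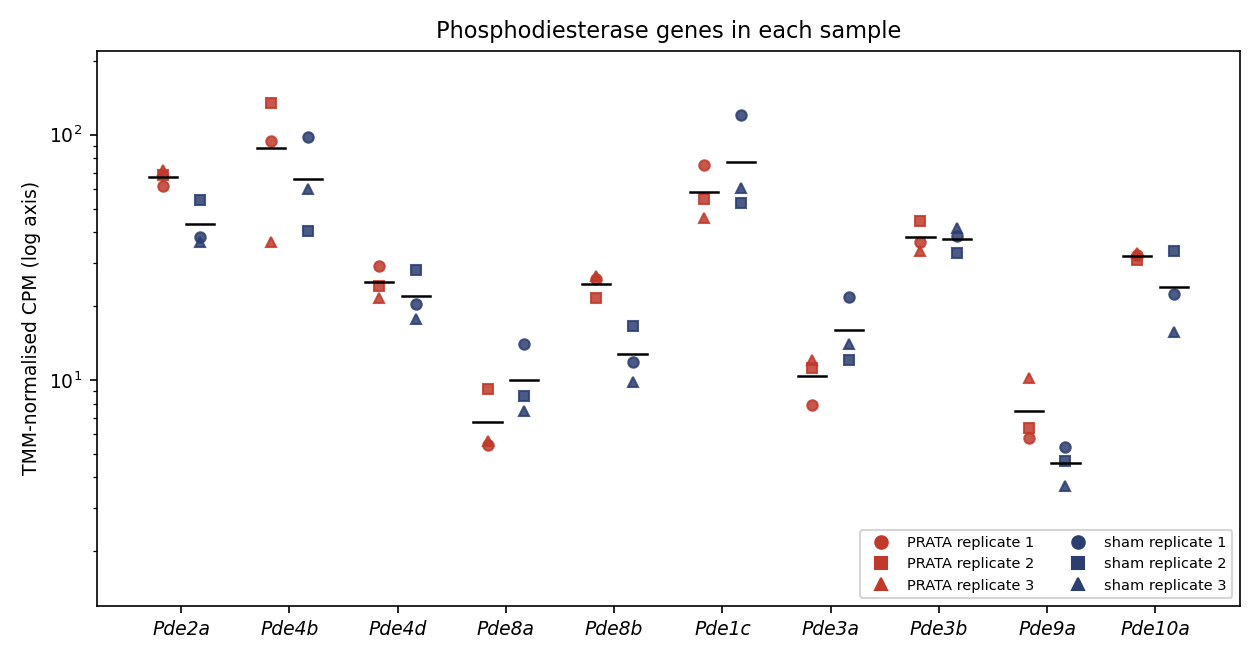
TMM-normalised CPM (log axis) of 10 phosphodiesterase transcripts in each sample. Points are single samples, shapes mark the replicate number and black bars the group means. Pde2a, Pde8b and Pde9a have all PRATA points above all sham points, while Pde4b spreads from 36.4 to 135 CPM within PRATA.

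The difference between the synthesis and breakdown medians is a description and was not tested. The plot of log2 fold changes shows all 57 tested members by class.

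**Figure D3:**
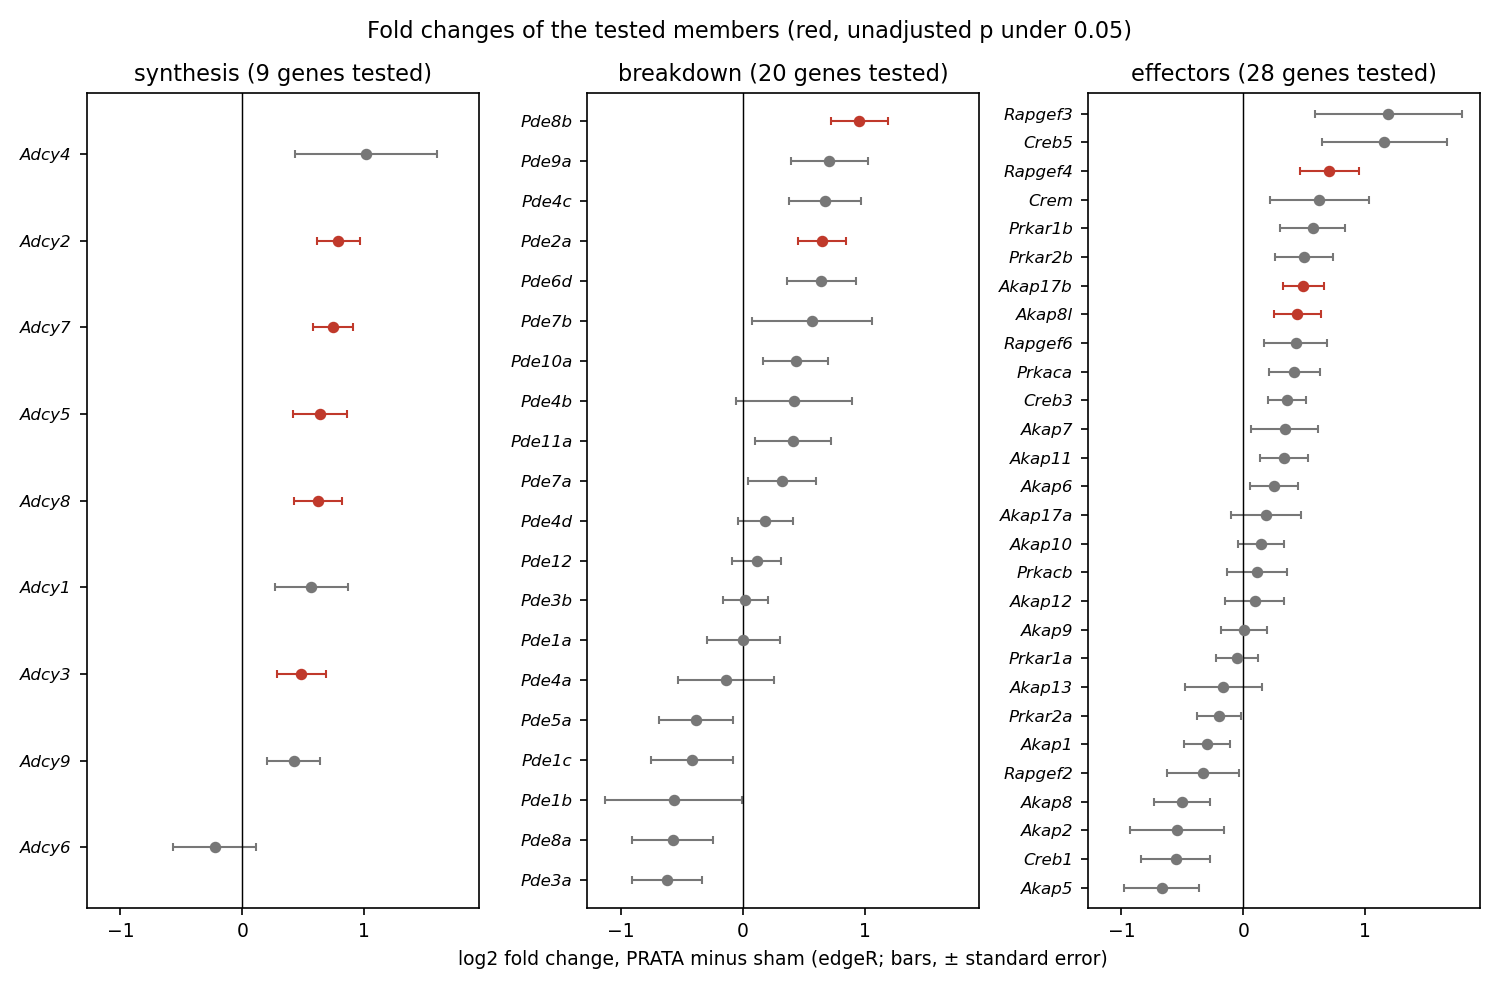
Log2 fold change (PRATA minus sham) of each tested member with its standard error, ordered within synthesis, breakdown and effectors. Members at an unadjusted p under 0.05 (edgeR) are marked, and all 10 of them lie to the right of 0.

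Of the 31 effector genes, 28 were tested, 19 had a positive log2 fold change, and 3 were higher at an unadjusted p under 0.05. These were Rapgef4, Akap17b and Akap8l. They are 10.7% of the class, near the 8.19% of all genes that were higher. The median was 0.22. Without PRATA replicate 1 no effector was higher at that p (edgeR, 0 of 29, with 1 lower), and without sham replicate 2 there were 8 higher and 3 lower. The first fit had 3.47% of all genes higher and 5.44% lower, and the second 13.4% higher and 14.1% lower.

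None of the 6 PKA subunit genes passed an unadjusted p of 0.05 in edgeR with the filter and all samples. Without the filter 2 were higher, Prkar1b and Prkar2b, without PRATA replicate 2 there were 2, and without sham replicate 2 there were 3. By limma voom there were 3 and by limma-trend 1. DESeq2 and all other alternatives gave 0, among them the fits without PRATA replicate 1, PRATA replicate 3, sham replicate 1 or sham replicate 3. Of all genes, 5.34% were higher without the filter, 7.53% without PRATA replicate 2 and 13.4% without sham replicate 2. By limma voom 15.6% of all genes were higher, and by limma-trend 8.39%. The median log2 fold change of the 6 subunit genes was 0.27, but 0.08 without sham replicate 1 and 0.11 without both PRATA replicate 3 and sham replicate 1. The catalytic Prkaca was at 85.8, 64.5 and 84.4 CPM in PRATA and 45.4, 69.6 and 60.7 CPM in sham (log2 fold change 0.42, SE 0.211, unadjusted p = 0.0810). The other catalytic gene, Prkacb, was at 97.7, 73.4 and 67.8 CPM against 54.5, 96.3 and 70.5 CPM (0.11, SE 0.245, unadjusted p = 0.661). In both, sham replicate 2 fell within the PRATA range.

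Among the regulatory subunits, the beta forms are the ones known from nervous tissue. Prkar1b was at 119, 94.5 and 140 CPM in PRATA and 60.5, 111 and 67.0 CPM in sham (log2 fold change 0.57, SE 0.267, unadjusted p = 0.0643). Prkar2b was at 194, 150 and 176 CPM against 91.4, 163 and 115 CPM (0.50, SE 0.237, unadjusted p = 0.0687). Sham replicates 1 and 3 lay below every PRATA sample in both genes, and sham replicate 2 did not. The alpha forms had log2 fold changes of -0.05 for Prkar1a (unadjusted p = 0.789) and -0.20 for Prkar2a (unadjusted p = 0.305).

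Shares of reads within a subunit pair do not depend on library scaling. They were chosen after the values were seen. Prkar2b took 64.6% (95% Wilson interval 62.6 to 66.5), 60.0% (58.3 to 61.7) and 56.3% (54.8 to 57.9) of the reads of Prkar2a and Prkar2b in PRATA replicates 1, 2 and 3. In the sham replicates it took 44.0% (42.3 to 45.8), 54.2% (52.0 to 56.4) and 45.0% (43.2 to 46.9). The 3 PRATA shares were all higher, at 60.3% ± 4.12 against 47.8% ± 5.61 (SD, n = 3 each, two-sided exact permutation p = 0.10, the smallest that 3 against 3 allows). Intervals cover counting error only, and those of PRATA replicate 3 and sham replicate 2 overlapped.

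Prkar1b took 27.3% (25.9 to 28.9), 25.6% (24.4 to 26.9) and 30.8% (29.6 to 32.0) of the reads of Prkar1a and Prkar1b in PRATA. In sham it took 16.8% (15.8 to 17.8), 25.4% (23.8 to 27.1) and 17.7% (16.6 to 18.9). PRATA replicate 2 and sham replicate 2 differed by less than their counting intervals, and the other sham samples were lower. Together both beta forms made up 41.1% ± 1.52 of the regulatory subunit reads in PRATA and 30.9% ± 5.53 in sham (SD, n = 3 each, exact permutation p = 0.10). Prkaca took 46.8% (44.2 to 49.4), 46.8% (44.5 to 49.1) and 55.5% (53.2 to 57.7) of the catalytic subunit reads in PRATA and 45.4% (42.9 to 48.0), 42.0% (39.0 to 44.9) and 46.3% (43.7 to 48.9) in sham. PRATA replicate 3 stood well above the rest, and the other PRATA samples were within the counting intervals of sham replicates 1 and 3 (49.7% ± 5.01 against 44.6% ± 2.30, SD, n = 3 each, exact permutation p = 0.10). Each of the 4 shares was tested on its own, and with 0.10 as the smallest p none could pass 0.05 with or without adjustment. The joint share of both beta forms uses the reads of the 2 single shares again, so the 4 are not separate results. The sensory neuron markers were also highest in replicate 2 among the sham samples, and their part in these shares was not tested.

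**Figure D4:**
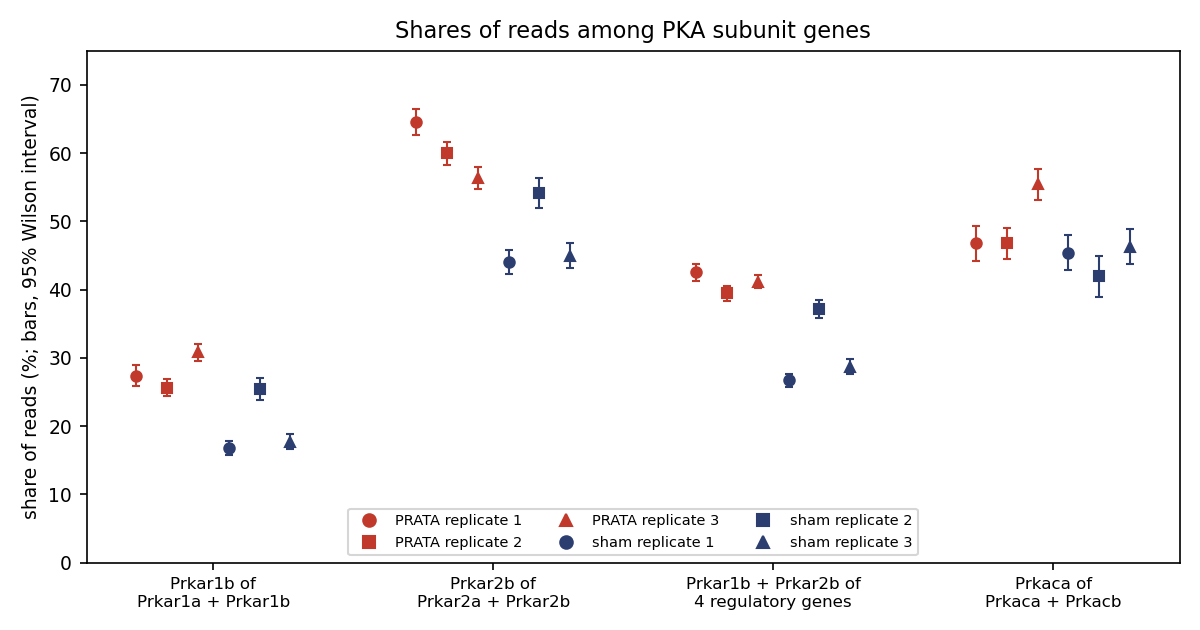
Share of reads, in percent, taken by 1 PKA subunit or pair of subunits within its group, for each sample with its 95% Wilson interval. For both beta regulatory subunits, sham replicate 2 lies close to the PRATA samples and the other sham samples lie lower.

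Rapgef4 and Rapgef3 encode the Epac proteins, the exchange factors for Rap that bind cAMP directly. Rapgef4 was at 58.5, 37.5 and 54.3 CPM in PRATA and 30.4, 37.9 and 23.8 CPM in sham (log2 fold change 0.71, SE 0.244, unadjusted p = 0.0196 and adjusted p = 0.211, edgeR). PRATA replicate 2 and sham replicate 2 were at nearly the same level, so the groups overlapped. Rapgef3, at 3.23, 4.94 and 2.93 CPM against 1.59, 2.97 and 0.472 CPM, had few reads (1.19, SE 0.604, unadjusted p = 0.0835). Rapgef6 had a log2 fold change of 0.43 (unadjusted p = 0.136). Rapgef2 had -0.33 (unadjusted p = 0.301), with sham replicate 1 at 285 CPM and the other 5 samples at 120 to 174 CPM, and 0.04 without that library. Without sham replicate 2 it was -0.58 (unadjusted p = 0.0383).

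No CREB family member passed an unadjusted p of 0.05 in edgeR with the filter and all 6 samples. In other fits of the 6 samples Creb5 was higher, by DESeq2 (unadjusted p = 0.0171), by limma voom (unadjusted p = 0.0201) and by edgeR without the filter (unadjusted p = 0.0220). Limma voom also had Creb1 lower and Creb3 higher. In edgeR with the replicate number as a block, 1 of the 4 family members was higher at an unadjusted p under 0.05. Creb1, the factor that PKA phosphorylates, was at 8.91, 10.2 and 6.33 CPM in PRATA and 10.2, 11.1 and 16.1 CPM in sham (log2 fold change -0.55, SE 0.281, unadjusted p = 0.0838). Creb3, a membrane-bound factor of the endoplasmic reticulum that is released by proteolysis, was at 97.5, 110 and 119 CPM against 80.6, 91.9 and 81.9 CPM (0.36, SE 0.159, unadjusted p = 0.0531). The groups did not overlap for Creb3 and overlapped narrowly for Creb1.

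Creb5 and Crem varied more within the groups than the others. Creb5 was at 47.0, 52.4 and 16.9 CPM in PRATA and 28.7, 14.4 and 8.60 CPM in sham (log2 fold change 1.16, SE 0.516, unadjusted p = 0.0545). Crem, which gives both activators and the inducible repressor ICER, was at 44.4, 49.7 and 15.0 CPM against 28.1, 23.3 and 19.3 CPM (0.62, SE 0.405, unadjusted p = 0.161). In both genes PRATA replicate 3 was far below the other PRATA samples and sham replicate 1 was the highest sham sample. These are the samples that also differed in 7SL reads. Without both of them the log2 fold change was 2.13 for Creb5 (unadjusted p = 0.00011 and adjusted p = 0.0650, edgeR) and 1.14 for Crem (unadjusted p = 0.00158 and adjusted p = 0.168). Leaving out the lowest PRATA and the highest sham sample had to widen the difference, so these p-values add no support. Pde4b too was lowest among PRATA samples in replicate 3 and highest among sham samples in replicate 1. The plot of CREB family and target genes shows it beside the genes that CREB is known to act on.

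**Figure D5:**
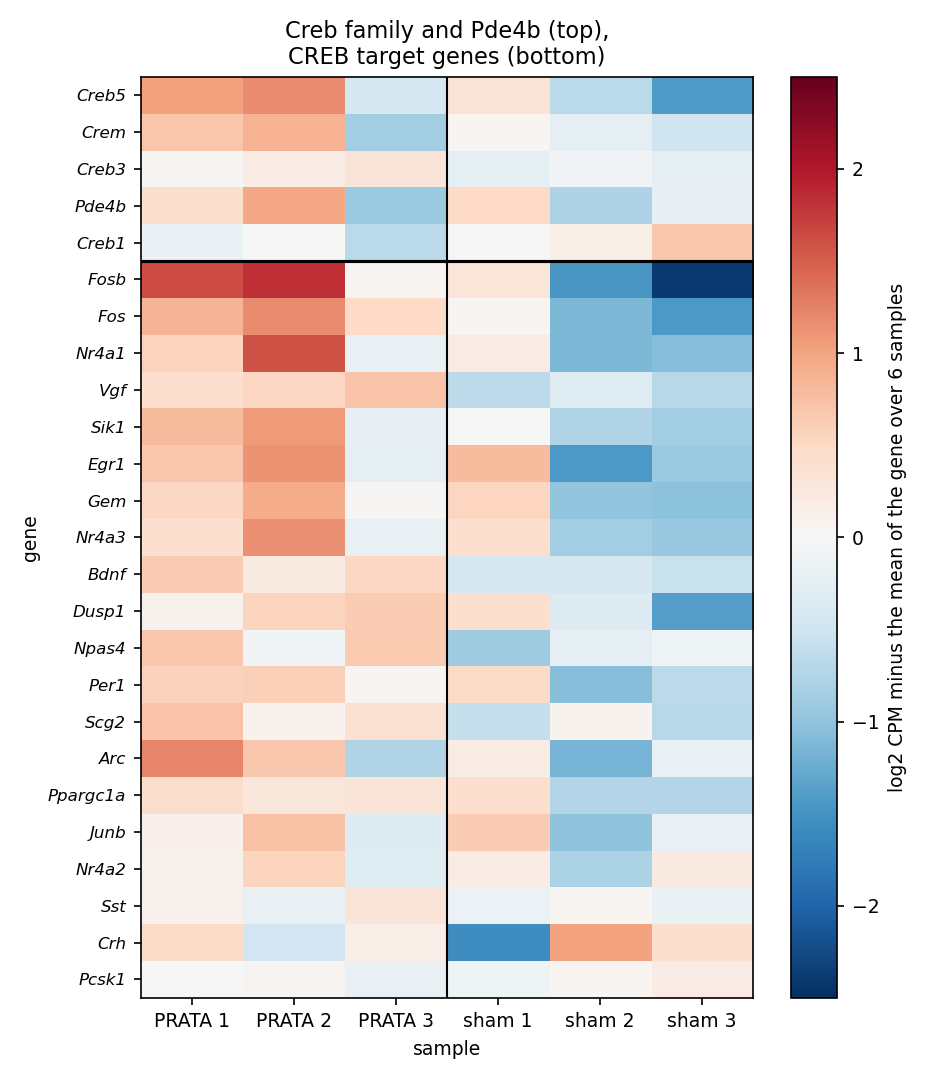
Level of Creb and Crem members and of CREB target genes in each sample, as log2 CPM minus the mean of that gene over the 6 samples, with colours limited to the range of the bar. Darker red marks a higher level. Crem, Creb5 and Pde4b are lower in PRATA replicate 3 than in the other PRATA samples, while Vgf and Bdnf are higher in all 3 PRATA samples than in all 3 sham samples.

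The cAMP response element (CRE), TGACGTCA, is the palindrome that CREB and Crem products bind, and TGACG, or CGTCA on the other strand, is its 5-base core. Each CRE holds the core on each strand. Both were searched in the 250 bases before each RefSeq gene start on GRCr8. Crem was chosen because its own inducible transcripts come from a promoter with such elements, and Vgf because it was the CREB target with the lowest p. Of 3 Crem windows, 2 held a CRE, with its first base 56 and 35 bases before the start on the plus strand of chromosome 17. Vgf held 1, 90 bases before the start on the minus strand of chromosome 12. Capitals mark the CRE.
Crem, chr17:58984547-58984796, plus strand: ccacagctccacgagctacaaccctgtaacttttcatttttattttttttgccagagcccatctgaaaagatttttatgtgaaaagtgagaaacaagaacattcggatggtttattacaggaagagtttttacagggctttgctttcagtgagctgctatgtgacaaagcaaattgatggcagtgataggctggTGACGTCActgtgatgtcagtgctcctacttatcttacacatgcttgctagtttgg
Crem, chr17:58985240-58985489, plus strand: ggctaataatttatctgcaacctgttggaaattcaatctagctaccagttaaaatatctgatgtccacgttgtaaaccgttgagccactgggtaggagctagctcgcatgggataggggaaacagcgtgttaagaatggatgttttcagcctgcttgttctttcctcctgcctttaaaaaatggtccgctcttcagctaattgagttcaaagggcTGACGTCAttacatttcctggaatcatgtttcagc
Vgf, chr12:25277021-25277270, minus strand: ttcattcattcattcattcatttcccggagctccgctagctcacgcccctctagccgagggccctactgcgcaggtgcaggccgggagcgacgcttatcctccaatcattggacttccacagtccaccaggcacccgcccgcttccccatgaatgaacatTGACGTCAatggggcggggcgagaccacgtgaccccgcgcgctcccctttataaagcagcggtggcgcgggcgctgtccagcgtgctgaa
Among all 33469 windows 1.59% held a CRE and 18.2% the core. Of the 64 member names 50 matched, with 66 windows, of which 3 (4.55%) held a CRE, in Crem and Akap17a, and 14 (21.2%) the core, in 10 names. The matched windows of Adcy2, Adcy7 and Pde8b held no CRE, nor did 6 windows of Bdnf and 1 of Nr4a1, 2 other CREB targets. The core alone stood at 4 places in the Nr4a1 window and at 1 place in 1 Bdnf window, and at none in Adcy2, Adcy7 and Pde8b. A match describes these letters only.

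The Akap genes encode scaffolds that tie PKA to membranes, organelles and receptors. Of 17, 14 were tested, and the median log2 fold change was 0.12. At an unadjusted p under 0.05 in edgeR, 2 were higher and 0 lower, beside 8.19% and 10.1% of all genes. By limma voom, 2 of the 14 were higher and 1 lower, beside 15.6% and 15.3% of all genes. Of all 28 tested effectors, limma voom had 10 higher and 2 lower. Akap3, Akap4 and Akap14 were not tested. Akap17b was at 39.5, 36.3 and 38.2 CPM in PRATA and 23.8, 30.4 and 26.9 CPM in sham, without overlap (0.49, SE 0.167, unadjusted p = 0.0182 and adjusted p = 0.205, edgeR). Akap8l, a nuclear scaffold, was at 43.4, 44.1 and 34.5 CPM against 27.9, 26.1 and 35.4 CPM, where PRATA replicate 3 lay below sham replicate 3 (0.45, SE 0.193, unadjusted p = 0.0497 and adjusted p = 0.272). Akap12, the scaffold also called gravin, had the most reads of all members, with 2543 to 3553 CPM in PRATA and 2383 to 3267 CPM in sham (0.09, unadjusted p = 0.703).

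Outside the naming rule, and named after their values were seen, 2 more scaffolds stood above sham in every PRATA sample and 1 stood below. Akap6, which gathers PKA at the nuclear envelope, was at 851 to 984 CPM in PRATA and 708 to 844 CPM in sham (log2 fold change 0.25, unadjusted p = 0.231). Akap11 was at 389 to 453 CPM against 293 to 384 CPM (0.33, unadjusted p = 0.124). The mitochondrial scaffold Akap1 was the 1 member with PRATA below sham, at 32.6 to 36.7 CPM against 37.0 to 52.3 CPM (-0.30, unadjusted p = 0.153). In each of these the gap between the groups was small beside the spread within them. The most negative values of the Akap genes were those of Akap5 (-0.67, unadjusted p = 0.0611), Akap2 (-0.54, unadjusted p = 0.195) and Akap8 (-0.51, unadjusted p = 0.0593), whose groups overlapped. In edgeR, Akap5 was lower without PRATA replicate 1 (unadjusted p = 0.0454) and without sham replicate 1 (unadjusted p = 0.0293). Akap8 (unadjusted p = 0.00241) and Akap2 (unadjusted p = 0.0342) were lower without sham replicate 2.

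Levels relative to neuron content were also computed, since the mean log2 CPM of the neuron markers was 8.57, 8.22 and 8.59 in PRATA and 7.76, 8.24 and 7.97 in sham. After each sample's marker mean was subtracted, with no test, the median log2 difference was 0.14 for synthesis, -0.21 for breakdown and -0.21 for the effectors, beside -0.43 for all genes. Pde8b was then the 1 member of 57 (1.75%, against 1.28% of all genes) with PRATA above sham in every sample, at 0.51. Adcy2 at 0.32 and Adcy7 at 0.27 overlapped. PRATA below sham held for 6 members, Pde3a, Akap1, Akap5, Creb1, Prkar1a and Prkar2a (10.5%, against 28.9% of all genes).

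PRATA replicate 2 and sham replicate 2 had nearly the same marker mean. This pair was chosen after the values were seen and carries no test. PRATA replicate 2 was the higher of the pair for 9 of 9 cyclases, with a median log2 ratio of 0.55, for 15 of 20 phosphodiesterases (0.35) and for 18 of 28 effectors (0.13), where it was the higher for 47.8% of all genes (-0.02). The pair was not matched in other cell markers, with Schwann cell markers at 1393 against 685 CPM, satellite glia markers at 6099 against 4332 CPM and macrophage markers at 68.0 against 33.1 CPM, and their part in these counts was not tested.

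Upstream of the cyclases, genes of the pathway outside the member list were followed in lists. Their counts stand beside 8.19% of all genes that were higher and 10.1% that were lower at an unadjusted p under 0.05. Of 3 rows for the stimulatory G protein alpha subunits, 2 were higher at an unadjusted p under 0.05 and none was lower. Gnas (ENSRNOG00000047374), which couples receptors to the cyclases, was at 252, 208 and 270 CPM in PRATA and 166, 192 and 140 CPM in sham, without overlap (log2 fold change 0.55, unadjusted p = 0.0221). Gnal, the olfactory form, had a log2 fold change of 0.53 (unadjusted p = 0.0336), and a second row named Gnas had 0.07. Of 5 inhibitory subunits 1 was higher, Gnaz, at 0.64 (unadjusted p = 0.0144).

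Of 38 matched receptors that couple to the stimulatory G protein, 18 were tested, 2 were higher and 0 were lower in edgeR, beside 8.19% and 10.1% of all genes. Both are prostanoid receptors. Ptgir, the prostacyclin receptor, was at 99.8, 80.2 and 102 CPM in PRATA and 53.7, 70.7 and 50.6 CPM in sham (log2 fold change 0.69, unadjusted p = 0.00689). Ptger4, a receptor of prostaglandin E, was at 12.9, 13.3 and 16.8 CPM against 9.88, 6.87 and 6.90 CPM (0.86, unadjusted p = 0.00768). Neither overlapped between the groups.

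Downstream, 4 of 10 tested channel, popeye domain and efflux genes were higher and 1 was lower. For this list and the others here, the shares of all genes were 8.19% higher and 10.1% lower. Hcn3, a pacemaker channel, had a log2 fold change of 0.68 (unadjusted p = 0.0108) and Popdc3 one of 0.61 (unadjusted p = 0.0298). The lower gene was the cAMP exporter Abcc4, named as the only one lower, at -0.51 (unadjusted p = 0.0362). Of 3 PKA inhibitor peptides 1 was higher, Pkib, at 0.50 (unadjusted p = 0.0451). In the 11 anchoring proteins without an Akap symbol, Map2 (0.66, unadjusted p = 0.0143) and Pcnt (0.45, unadjusted p = 0.0471) were higher and Rab32 lower (-1.21, unadjusted p = 0.00802). The cGMP branch had 7 tested genes, of which Npr2, a natriuretic peptide receptor, was higher (0.48, unadjusted p = 0.0257) and Gucy1a1, a subunit of the nitric oxide receptor, lower (-1.02, unadjusted p = 0.00483).

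Among 9 CREB partners and salt-inducible kinases, 1 was higher and 2 were lower, beside 8.19% and 10.1% of all genes. Atf1, a close relative of Creb1, was at 17.6, 18.9 and 19.5 CPM in PRATA and 39.6, 30.0 and 34.9 CPM in sham (log2 fold change -0.90, unadjusted p = 0.000819). Sik2, a kinase that holds the CREB coactivators out of the nucleus, was at 62.4, 61.5 and 55.1 CPM against 168, 92.7 and 196 CPM (-1.35, unadjusted p = 0.00102). Neither gene overlapped between the groups. Sik1, itself induced by cAMP, was higher (1.13, unadjusted p = 0.0137), although its groups overlapped. It is also in the list of CREB target genes that follows, so this call is counted in both lists.

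Of 20 CREB target genes, 18 had positive log2 fold changes, 7 were higher and 0 lower at an unadjusted p under 0.05 in edgeR, and the median was 0.81. Over all genes, 52% were positive, 8.19% higher and 10.1% lower. Every PRATA sample stood above every sham sample for 4 of the 20, beside 11.6% of all genes. Centred on each gene's mean over the samples, the mean log2 CPM of the 20 was 0.552, 0.62 and 0.1 in PRATA replicates 1, 2 and 3. In sham replicates 1, 2 and 3 it was 0.009, -0.625 and -0.657. PRATA replicate 3 and sham replicate 1, the samples that also differed in 7SL reads, were thus nearly level. Vgf, a secreted neuropeptide precursor, was at 172, 183 and 212 CPM in PRATA and 81.7, 104 and 79.8 CPM in sham (1.09, SE 0.181, unadjusted p = 0.000289 and adjusted p = 0.156). The neurotrophin gene Bdnf was at 50.9, 38.3 and 47.3 CPM against 24.7, 24.7 and 22.5 CPM (0.93, SE 0.176, unadjusted p = 0.000716). The immediate early gene Fos was at 379, 474 and 298 CPM against 217, 96.3 and 77.6 CPM (1.55, SE 0.397, unadjusted p = 0.00429). None of these 3 overlapped between the groups, while the other called targets did. All 6 neuron preparations had been dissociated and plated, a step shared by both groups. These genes answer to other signals as well as to cAMP, and no cAMP or PKA activity was measured.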

How the data were processed

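The authors deposited 1 table of raw counts per gene for 6 libraries made with a kit for small amounts of total RNA. Per the labels, the submitters' processing notes list STAR 2.7.3a, RSEM and DESeq2, whereas the study's methods name HISAT2, StringTie and Cuffdiff, and which of them made the counts is not known. The genome build, annotation and strand setting are not given in the sources used here, so overlapping genes may share reads. Counts were tested with edgeR 4.0.16 (R 4.3.3) by the quasi-likelihood test with TMM factors, in a fit over all genes that passed filterByExpr (minimum count 10, minimum total count 15), with Benjamini-Hochberg adjustment over 14919 genes. Alternatives used DESeq2 1.42.0, limma 3.58.1 (voom with sample weights, limma-trend with a pseudocount of 1), other scalings and filters, a replicate block and left-out libraries. The scripts were tested on simulated data. Promoter sequences came from RefSeq.

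Members and lists were chosen with earlier results of these data known. Of 115 pathway gene symbols 108 matched, and of 77 marker symbols 75. Members were named at an unadjusted p under 0.05, as the most counted of their family, or as PKA, Rapgef, Creb or Crem genes, and other pathway genes at that p, up to 3 for each list, of which 1 is not reported here. Same-numbered samples did not deviate together (r = -0.351, -0.029 and -0.351 over all genes), so the block was an alternative only.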

Additional observations from a re-analysis of the deposited data

How the results depend on the processing

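Depth, 3 libraries a group and the filter limit these results, and most calls rest on unadjusted p-values. Of 543 pairs of a named member and an alternative with a test, 448 kept their direction and side of the threshold, 45 passed it newly, 34 lost it and 16 reversed. Adcy2, Adcy7 and Pde8b kept an unadjusted p under 0.05 in all 16 alternatives, Adcy8 and Pde2a in 15, Adcy5 and Akap17b in 12, Rapgef4 in 11, Adcy3 in 9 and Akap8l in 4.

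With all genes, calls at an adjusted p under 0.05 numbered 744 by DESeq2, 1173 by voom and 13 in the 4 samples without PRATA replicate 3 and sham replicate 1, and 0 to 721 with 1 library left out, the 721 without sham replicate 2. At an unadjusted p under 0.05 voom called 4606, and leaving out 1 library gave 1406 (without PRATA replicate 1) to 4254 (without sham replicate 2). With library size alone, 835 genes were higher and 1676 lower, against 1222 and 1512, so 33.3% of the calls were higher in place of 44.7%. Members higher numbered 23 by voom and 6 to 18 with 1 library left out. Members lower numbered 1 by library size alone, 1 with at least 10 counts in every sample, 2 with protein-coding genes alone, 3 by voom and 0 to 4 with 1 library left out, the 4 without sham replicate 2. Members past both p and fold numbered 3 without a filter, 1 by DESeq2, 3 by voom, 5 in the 4 samples and 0 to 3 with 1 library left out. The synthesis median was 0.47 to 0.68 with 1 library left out. Relative to the sensory neuron markers the medians were 0.14 for synthesis, -0.21 for breakdown and -0.21 for the effectors, the last 2 reversed. There each sample's marker mean was taken from every gene alike, and the median of all genes moved from 0.025 to -0.43. Why the marker mean differed between the groups was not tested.

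Same-numbered samples were not paired by these data. In the blocked fit on the replicate number, 1528 genes passed an unadjusted p under 0.05, 7 of them members that were higher and 0 members that were lower. There, 2 members passed both p and fold, 3 cyclases were higher, and the medians were 0.61, 0.25 and 0.26.

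Relative to the neuron markers, with no test, 1 called member changed sign, Akap8l at -0.02. Among members of the naming rule without a call, Pde3b at -0.45, Akap12 at -0.38, Prkacb at -0.34 and Pde12 at -0.33 changed sign there. So did Pde4b at -0.15, Creb3 at -0.11, Prkaca at -0.04, Pde11a at -0.02 and Crem at -0.01. Members outside that rule changed sign as well, among them the cyclase Adcy9 at -0.03. In all, 21 of the 57 tested members were positive there, against 41 in the main fit. In the fits with a test, no reversed member had been called. Pde3b was at -0.002 by library size alone, -0.006 with protein-coding genes alone, -0.001 by DESeq2 and -0.071 by voom. In the 4 samples Pde1c was at 0.183 and Rapgef2 at 0.10. With 1 library left out, the lowest and highest values were -0.102 (without PRATA replicate 2) and 0.109 for Pde3b, -0.659 and 0.022 (without sham replicate 1) for Pde1c, and -0.577 and 0.044 (without sham replicate 1) for Rapgef2. They were -0.021 (without PRATA replicate 2) and 0.80 for Pde4b, -0.104 and 0.019 (without PRATA replicate 2) for Prkar1a, -0.042 (without PRATA replicate 1) and 0.215 for Akap12, and -0.087 (without sham replicate 1) and 0.351 for Prkacb. An alternative added after seeing the data left out Pde6d and Pde12 and gave a breakdown median of 0.25.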
